A study of Mus musculus with 8 samples.

Results

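The genes described here encode the enzymes that remove superoxide and peroxides: 5 glutathione peroxidases (Gpx1, Gpx3, Gpx4, Gpx7, Gpx8), catalase (Cat) and 3 superoxide dismutases (Sod1, Sod2, Sod3). They were measured in whole liver of female C57BL/6 mice with the ΔF508 change in Cftr, labelled CF, and of wild-type (WT) littermates, with 4 livers and 4 arrays per genotype. Members were chosen by platform gene symbol, and each gene was read from its probe of highest mean over the 8 arrays, which made 9 of 16593 named genes on the array. The 9 genes had 12 probes, 11 of these entered the tests, and all 9 genes had at least 1 tested probe. Mice of both genotypes were weaned at 21 days, received an enriched chow and diluted Colyte, a polyethylene glycol and electrolyte solution, as their drink, and were killed at 23 days. The labels give neither the zygosity of the ΔF508 allele nor the litters. The p-values set the genotype difference against the spread between these livers, and any dependence between littermates could not be modelled. Levels are deposited log2 values, given as mean ± SD with n = 4 per genotype, and a difference is CF minus WT in log2 units with its standard error (SE). Levels of different probes are not on a common scale, so no gene is ranked above another.

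Superoxide dismutases turn superoxide into hydrogen peroxide, and catalase and the peroxidases remove the peroxide. Catalase works mainly in the peroxisome, which is abundant in hepatocytes. Gpx1, Gpx3 and Gpx4 are selenoproteins that draw on glutathione: Gpx1 is the cytosolic and mitochondrial form, Gpx3 is the secreted form, made above all by the kidney tubule, and Gpx4 repairs lipid peroxides in membranes and protects cells from ferroptosis. Gpx7 and Gpx8 carry cysteine in place of selenocysteine and act in the endoplasmic reticulum, where they use peroxide in protein folding. Sod1 is the copper and zinc enzyme of the cytosol, Sod2 the manganese enzyme of the mitochondrial matrix, and Sod3 the extracellular copper and zinc enzyme.

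Single libraries stood apart from the others and touch these genes. On array WT 4, 86 probes lay more than 1 log2 unit above every other array, against 0 to 20 on the other arrays. All 4 kidney tubule markers were above the background level of 6.47 there: Kap, an androgen-regulated kidney protein, was at 12.42, the phosphate transporter Slc34a1 at 11.99, uromodulin (Umod) at 10.85 and the water channel Aqp2 at 6.80. Their summed level was 13.49 (log2) on WT 4 and between 8.08 and 8.30 on the other 7 arrays, on which no kidney marker passed background except Kap on CF 4, at 6.48. Exocrine pancreas markers, 6 of 7 with a probe, had a summed level of 14.93 on WT 3 and 14.22 on CF 1, against 10.06 to 12.35 on the other 6. The 5 hepatocyte markers were all above background and none passed, with a summed level of 16.07 to 16.14 in WT and 16.09 to 16.17 in CF. That sum comes mostly from Ttr, Apoa1 and Serpina1c, whose means of 14.37 to 14.39 are near the highest array value of 14.66. Whether their signal is compressed there was not tested. Apoh was 12.56 to 12.68 in WT and 12.74 to 12.96 in CF (0.21 ± 0.07 SE, limma adjusted p = 0.0568). The Cftr probe itself was under background on all 8 arrays (5.89 to 6.14) and so checks no label.

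Catalase, Gpx1, Gpx7 and Gpx8 fell in CF livers, and no member rose in the fit of all 8 arrays. In numbers, 4 of 9 members were lower, 0 higher and 5 did not pass (limma, adjusted p under 0.05), against 19.8% of 9146 tested genes called in either direction, 8.79% lower and 11.0% higher. At an unadjusted p under 0.05 the same numbers were 4 and 0. The median difference of the 9 genes was -0.26, that of all tested genes 0.02. The arrays of both genotypes did not overlap for 4 members, all lower in CF, against 24.4% of tested genes, 10.5% lower and 13.9% higher. Since the list was drawn up with earlier results of these data known, these counts are a description. Without WT 4, 3 members were lower (Gpx7, Gpx8, Cat) and 1 was higher (Gpx3), where 14.5% of genes were called, 6.92% lower and 7.54% higher. Without WT 3 and CF 1, Gpx7 and Gpx8 were the 2 members called, both lower, where 8.58% of genes were called, 4.09% lower and 4.49% higher. The same 2 passed without WT 3, WT 4 and CF 1 together, where 5.23% were called, 3.08% lower and 2.14% higher. In whole tissue, fewer cells of a type and less RNA per cell cannot be told apart.

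**Figure D1:**
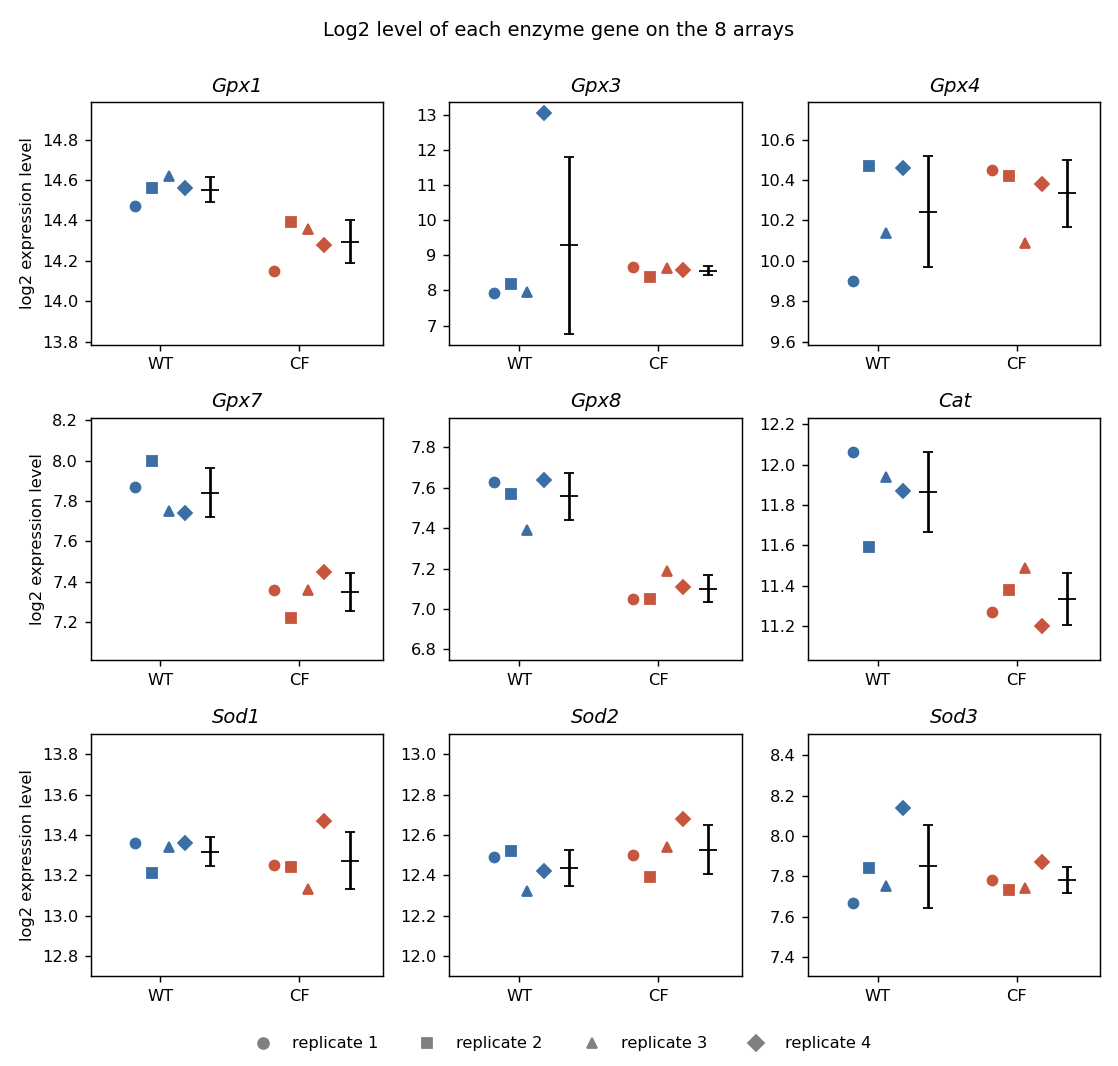
Log2 level (y axis) of each of the 9 enzyme genes in WT (blue) and CF (red) livers. Each point is 1 array, its shape the replicate number, and the bar beside the points is the mean ± SD (n = 4). The y axis spans 1.2 log2 units in every panel except Gpx3, where WT 4 at 13.04 stretches it. CF points lie wholly below WT points for Gpx1, Gpx7, Gpx8 and Cat.

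Among the selenium-dependent peroxidases, Gpx1 fell by a small and even step. Its 4 WT arrays read 14.47, 14.56, 14.62 and 14.56, and its 4 CF arrays 14.15, 14.39, 14.36 and 14.28. All CF values were below all WT values, with a gap of 0.08 between the groups. The mean dropped from 14.55 ± 0.06 to 14.30 ± 0.11, a 1.2-fold fall (-0.26 ± 0.07 SE, adjusted p = 0.0347). The call rested on single libraries: adjusted p was 0.0730 with WT 2 left out, 0.0961 for WT 3, 0.0762 for WT 4, 0.0832 for CF 1 and 0.0691 for CF 4. With WT 3 and CF 1 both left out the difference was -0.19 (adjusted p = 0.199). The probe sits near the top of the array, whose highest value is 14.66, and whether its signal is compressed there was not tested.

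Gpx4, the membrane peroxidase, showed no such step. It read 9.90, 10.47, 10.14 and 10.46 in WT and 10.45, 10.42, 10.09 and 10.38 in CF. The groups overlapped throughout, with WT 1 lowest, and the difference was 0.09 ± 0.14 SE (95% confidence interval -0.22 to 0.40, adjusted p = 0.692). The spread within genotypes, a pooled SD of 0.23, was above that of 87.7% of tested genes. Its other probe was under background on all 8 arrays, between 6.21 and 6.42, and was not tested.

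Gpx3, the secreted peroxidase, was split by 1 library. It read 7.93, 8.19, 7.96 and 13.04 in WT and 8.67, 8.38, 8.63 and 8.59 in CF. WT 4 was 20.7-fold above the next highest array, while the other 3 WT arrays lay below all 4 CF arrays. With WT 4 in the fit the difference was -0.71 ± 1.0 SE (adjusted p = 0.673). Without WT 4 the sign turned: CF was at 8.57 ± 0.13 (n = 4) and WT at 8.03 ± 0.14 (n = 3), 1.46-fold higher (difference 0.54 ± 0.10 SE, adjusted p = 0.00987). Since WT 4 was left out with earlier results of these data known, that call is a description. With WT 3 and CF 1 left out as well, the difference was 0.47 ± 0.13 SE (adjusted p = 0.0886, n = 3 CF and 2 WT).

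The Gpx3 level of WT 4 moved with the kidney markers of that array. Ranked by excess over the highest other array, the 6 genes ahead of Gpx3 on WT 4 were Kap, Slc34a1, Hsd3b4, Umod, Fxyd2 and Napsa, and Gpx3 came in position 7 with an excess of 4.37. Cdh16, a kidney cadherin, and Slc12a1, the salt transporter of the loop of Henle, came next. The part of these transcripts in the Gpx3 value was not tested. The summed hepatocyte marker level of WT 4 was 16.07, against 16.09 to 16.17 on the other 7 arrays, a sum mostly from probes near the array maximum.

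**Figure D2:**
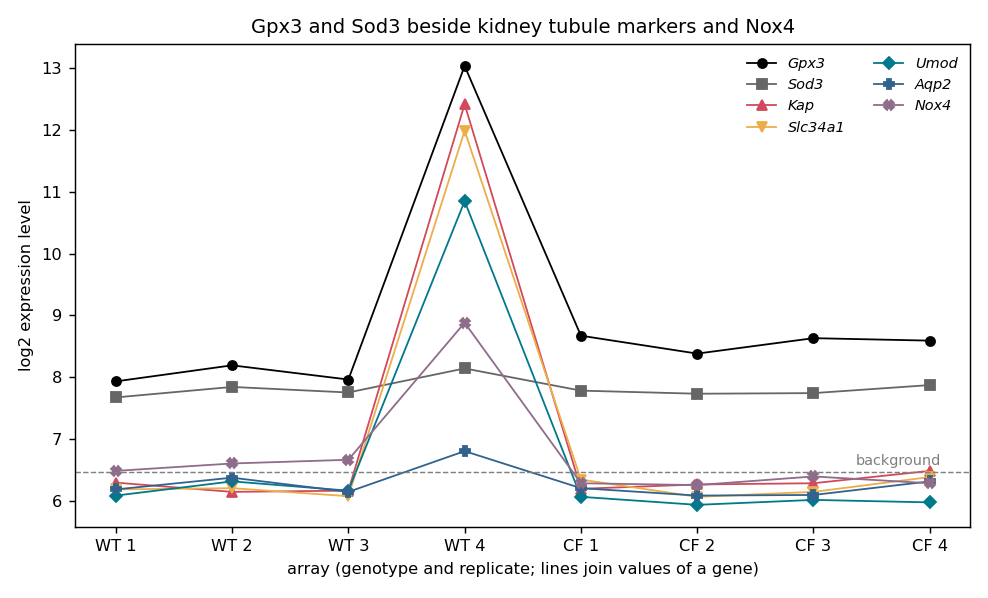
Log2 level (y axis) on each of the 8 arrays (x axis) of Gpx3 and Sod3, of the 4 kidney tubule markers Kap, Slc34a1, Umod and Aqp2, and of the oxidase gene Nox4. Lines join the values of a gene and the dashed line is the background level of 6.47. On WT 4 Gpx3 stands at 13.04, Kap at 12.42 and Nox4 at 8.88, each above its own value on the other 7 arrays.

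The peroxidases of the endoplasmic reticulum, Gpx7 and Gpx8, fell together and held in all fits that left out 1 library. Gpx7 read 7.87, 8.0, 7.75 and 7.74 in WT and 7.36, 7.22, 7.36 and 7.45 in CF. The lowest WT array was 0.29 above the highest CF array. Its mean dropped from 7.84 ± 0.12 to 7.35 ± 0.10, a 1.41-fold fall (-0.49 ± 0.08 SE, adjusted p = 0.00366). With single arrays left out, adjusted p ranged from 0.00565 to 0.0112. It passed without WT 3 and CF 1 as well (difference -0.53).

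Gpx8, a membrane-anchored relative of Gpx7, read 7.63, 7.57, 7.39 and 7.64 in WT and 7.05, 7.05, 7.19 and 7.11 in CF on its brightest probe. The groups were 0.20 apart. The fall was 1.37-fold (difference -0.46 ± 0.07 SE, adjusted p = 0.00355), with adjusted p between 0.00384 and 0.0123 as single arrays were left out. The other Gpx8 probes were also lower in CF. One had a difference of -0.51 ± 0.11 SE (adjusted p = 0.0144), and the other, on which CF 3 at 7.19 lay above WT 3 at 7.1, had -0.27 ± 0.09 SE (adjusted p = 0.0546). Of 7 stellate cell and fibroblast markers tested, Dcn rose by 0.32, Lrat fell by 0.54 and 5 did not pass, with differences below 0 for 5 of the 7, among them Col1a1 (-0.45) and Col3a1 (-0.30). Their summed level, in which Dcn is the brightest, was 13.11 to 13.33 in WT and 13.30 to 13.60 in CF. The part of these cells in the Gpx7 and Gpx8 values was not tested.

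Catalase, the peroxisomal enzyme, was lower on all 4 CF arrays. Cat read 12.06, 11.59, 11.94 and 11.87 in WT and 11.27, 11.38, 11.49 and 11.20 in CF. The highest CF array, CF 3, lay 0.10 under the lowest WT array, WT 2. The mean dropped from 11.87 ± 0.20 to 11.33 ± 0.13, a 1.45-fold fall (-0.53 ± 0.11 SE, adjusted p = 0.00918). A difference of this size or less was seen in 91.7% of tested genes. The call held in all 8 fits without 1 array (difference -0.62 to -0.47, adjusted p 0.00438 to 0.0306). Without WT 3 and CF 1 the difference was -0.48 with adjusted p = 0.0714, and with WT 4 left out as well it was -0.47 with adjusted p = 0.152.

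None of the 3 superoxide dismutases passed the test, and at an unadjusted p under 0.05 the count was 0 as well (limma). Sod1, the cytosolic enzyme, read 13.36, 13.21, 13.34 and 13.36 in WT and 13.25, 13.24, 13.13 and 13.47 in CF. CF 4 was the highest and CF 3 the lowest of all 8 arrays, and the difference was -0.04 ± 0.08 SE (95% confidence interval -0.23 to 0.14, adjusted p = 0.761). Sod2, the mitochondrial enzyme, read 12.49, 12.52, 12.32 and 12.42 in WT and 12.50, 12.39, 12.54 and 12.68 in CF, with overlapping groups and a difference of 0.09 ± 0.08 SE (interval -0.09 to 0.27, adjusted p = 0.481).

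Sod3, the extracellular enzyme, read 7.67, 7.84, 7.75 and 8.14 in WT and 7.78, 7.73, 7.74 and 7.87 in CF. WT 4 was again the highest array, as for Gpx3, and the part of the kidney transcripts in this value was not tested. The difference was -0.07 ± 0.10 SE (interval -0.29 to 0.15, adjusted p = 0.670) and 0.02 ± 0.07 SE without WT 4. Smooth muscle markers, which mark vessel walls where this enzyme is deposited, did not pass in any of 3 tested genes, with a summed level of 10.63 to 11.02 in WT and 10.80 to 11.53 in CF.

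**Figure D3:**
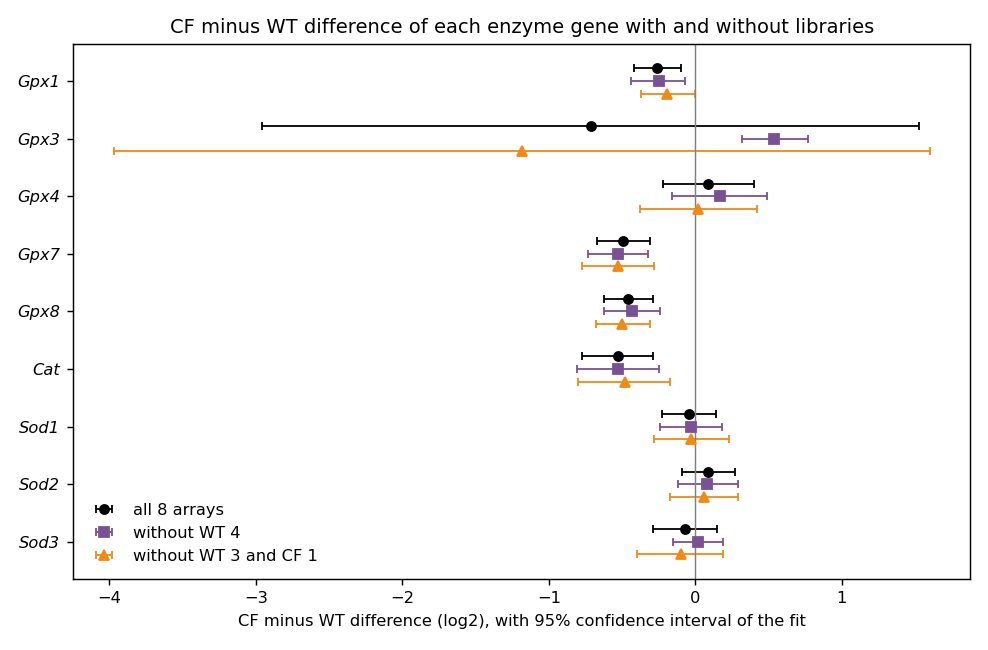
CF minus WT difference in log2 units (x axis) of the 9 enzyme genes with the 95% confidence interval of the fit, for all 8 arrays (black), without WT 4 (purple) and without WT 3 and CF 1 (orange). Gpx7, Gpx8 and Cat lie left of 0 in all 3 fits. Gpx3 moves from -0.71 to 0.54 when WT 4 is left out.

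The promoters of the 4 genes that fell are shown so that the letters they share can be read beside their fall. They are the RefSeq windows of GRCm38.p6, from 250 bases before to 50 bases after the start site, 5′ to 3′ on the strand of the gene, and capitals mark the matches found. Gpx1 is at chr9:108338830-108339129 (plus strand), Gpx7 at chr4:108406664-108406963 (minus), Gpx8 at chr13:113046339-113046638 (minus) and Cat at chr2:103485104-103485403 (minus).
Gpx1: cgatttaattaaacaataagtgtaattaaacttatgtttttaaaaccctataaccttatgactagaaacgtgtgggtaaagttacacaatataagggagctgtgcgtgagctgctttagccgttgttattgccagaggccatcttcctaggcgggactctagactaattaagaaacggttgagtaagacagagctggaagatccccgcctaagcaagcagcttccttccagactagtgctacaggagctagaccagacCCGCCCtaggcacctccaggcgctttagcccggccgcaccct
Gpx7: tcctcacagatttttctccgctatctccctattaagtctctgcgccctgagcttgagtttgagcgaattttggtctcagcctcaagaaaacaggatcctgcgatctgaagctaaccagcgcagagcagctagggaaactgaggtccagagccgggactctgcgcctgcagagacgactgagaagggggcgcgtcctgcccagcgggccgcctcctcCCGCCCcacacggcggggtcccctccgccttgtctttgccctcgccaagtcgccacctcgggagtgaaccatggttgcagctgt
Gpx8: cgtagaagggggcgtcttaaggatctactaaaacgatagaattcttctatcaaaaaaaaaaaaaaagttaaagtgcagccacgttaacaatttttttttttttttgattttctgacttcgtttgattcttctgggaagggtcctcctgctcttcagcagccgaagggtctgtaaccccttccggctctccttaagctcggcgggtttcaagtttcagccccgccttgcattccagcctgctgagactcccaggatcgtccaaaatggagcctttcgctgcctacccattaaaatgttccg
Cat: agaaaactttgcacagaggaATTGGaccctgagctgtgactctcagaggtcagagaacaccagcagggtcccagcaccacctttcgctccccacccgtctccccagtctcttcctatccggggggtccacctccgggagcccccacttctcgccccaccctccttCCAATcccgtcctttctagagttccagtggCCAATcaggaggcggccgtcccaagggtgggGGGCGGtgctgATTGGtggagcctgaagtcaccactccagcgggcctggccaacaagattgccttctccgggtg

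In those windows, 5 motifs were searched on both strands: the antioxidant response core TGACNNNGC, the FOXO motif GTAAACA, the GC box GGGCGG, the CCAAT box and the TATA box TATAAA. No overlap between matches of different motifs was removed. Gpx1 held 1 GC box, Gpx7 held 1 GC box, Cat held 1 GC box and 4 CCAAT boxes, and Gpx8 held no match to any of the 5. No motif searched was therefore shared by all 4 windows. A GC box was in 35.7% of all 32851 windows of this length and a CCAAT box in 37.4%. The antioxidant response core, in 12.4% of all windows, and the FOXO motif, in 3.65%, were in none of these 4. GC boxes were also in members that did not pass: 1 in Gpx3, 4 in Sod1, 4 in Sod2 and up to 2 in a window of Gpx4. CCAAT boxes were in windows of each of those members too, so neither box was particular to the genes that fell. Of the 8 members with a window in the table, Sod1 was the member with an antioxidant response core, and it did not pass the expression test. These are matches of letters and not binding sites.

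Within genotypes the 4 genes that fell did not vary as one block. Over the 8 arrays, the deviations from the genotype mean correlated at 0.28 for Gpx7 with Gpx8, 0.12 for Gpx8 with Cat, 0.14 for Gpx1 with Cat and -0.59 for Gpx7 with Cat. Gpx7 with Sod2 stood at 0.87, Gpx4 with Cat at -0.80, and Gpx3 with Sod3 at 0.92, both of the latter being highest on WT 4. By the same measure the genes most like Gpx1 were Olfr295 (0.982), Sardh (0.963) and Taf13 (0.951). Those most like Cat were Foxk1 (0.975), Sppl2a (0.973) and Ttc1 (0.959), and those most like Sod1 were Grwd1, Gtf2h1 and Chd1l (0.966, 0.963 and 0.963). Each is the top of all tested genes over 8 arrays, which share their normalization, and is a description.

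The counts of the following lists stand against 11.0% of all tested genes called higher and 8.79% called lower. Enzymes of thiol redox control were called in both directions, at close to those shares. Of 22 peroxiredoxin, thioredoxin and glutathione genes, 19 had a probe and 18 were tested: 2 rose, 1 fell and 15 did not pass, with a median difference of -0.08. Glrx, glutaredoxin, which reduces mixed disulfides with glutathione, read 11.85, 11.61, 11.62 and 11.53 in WT and 12.47, 12.26, 12.56 and 12.36 in CF, 1.70-fold higher (0.76 ± 0.09 SE, adjusted p = 0.000837). Txn1, thioredoxin, the electron donor of the peroxiredoxins, read 9.69, 9.72, 9.85 and 9.63 in WT and 9.10, 9.16, 9.30 and 9.32 in CF, 1.42-fold lower (-0.50 ± 0.08 SE, adjusted p = 0.00245). The groups of both genes were fully apart, and both calls held in all 8 fits without 1 array. Srxn1, sulfiredoxin, which repairs overoxidized peroxiredoxins, rose by 0.31 ± 0.08 SE (adjusted p = 0.0217). Its adjusted p rose to 0.0549 when WT 2 was dropped, 0.0608 for WT 3, 0.0509 for WT 4 and 0.0524 for CF 1. The rate-limiting glutathione synthesis genes Gclc (-0.20 ± 0.10 SE) and Gclm (-0.05 ± 0.10 SE), thioredoxin reductase Txnrd1 (0.19 ± 0.11 SE) and Prdx1 (-0.04 ± 0.08 SE) did not pass.

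The selenium side was mixed. Of 20 other selenoproteins and selenium-handling genes, 17 were tested: 1 rose, 3 fell and 13 did not pass, with a median difference of -0.02. Selenow, a small selenoprotein of the thioredoxin fold, read 9.37, 9.33, 9.13 and 9.00 in WT and 8.33, 8.61, 8.31 and 8.78 in CF, 1.62-fold lower (-0.70 ± 0.13 SE, adjusted p = 0.00553), and held in all 8 fits. Selenoi, a phospholipid synthesis enzyme, fell by 0.29 (adjusted p = 0.0196, and 0.0610 without WT 3) and Selenon, of the endoplasmic reticulum, fell by 0.29 (adjusted p = 0.0419, lost when any of WT 1 to 3 or CF 1 to 3 was dropped, at most 0.102). Selenos, of endoplasmic reticulum quality control, rose by 0.24 (adjusted p = 0.0342, lost when any of WT 2 to 4 or CF 2 to 4 was dropped, at most 0.0852). Selenop, the plasma selenium carrier made by hepatocytes, differed by 0.33 ± 0.19 SE and did not pass. Sephs2, which makes selenophosphate, and Secisbp2, which binds selenoprotein mRNAs, differed by 0.04 ± 0.17 SE and 0.01 ± 0.08 SE. The 3 other glutathione peroxidases gave 1 tested gene, Gpx2, the gut form, at 6.92 ± 0.21 in CF and 6.58 ± 0.18 in WT (0.34 ± 0.12 SE, adjusted p = 0.0839). Gpx5 and Gpx6 were not above background on 4 arrays.

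Metal-handling genes that passed were lower in CF. Of 11 copper, zinc and manganese genes, 9 were tested and 2 fell, 0 rose and 7 did not pass, with 2 and 0 at an unadjusted p under 0.05 (limma). Slc30a10, a manganese exporter, fell by 0.80 ± 0.23 SE (adjusted p = 0.0408) and Slc31a1, the copper importer, by 0.26 ± 0.08 SE (adjusted p = 0.0432). The call of Slc30a10 was lost when any of WT 1 to 3, CF 1, CF 3 or CF 4 was dropped (adjusted p at most 0.0984), and that of Slc31a1 for any WT array, CF 1 or CF 3 (at most 0.0995). Ccs, the chaperone that loads copper into Sod1, differed by -0.05 ± 0.07 SE and did not pass.

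Among genes whose enzymes make superoxide or peroxide, 4 of 11 tested fell, 1 rose and 6 did not pass, from a list of 20, with a median difference of -0.26. Aox3, an aldehyde oxidase that releases peroxide and superoxide, read 11.52, 11.40, 11.50 and 11.26 in WT and 10.12, 10.40, 10.15 and 10.60 in CF, 2.15-fold lower (-1.10 ± 0.11 SE, adjusted p = 0.000405). Uox, the peroxisomal urate oxidase, read 13.15, 12.98, 13.08 and 13.18 in WT and 12.19, 12.09, 12.52 and 12.32 in CF, 1.76-fold lower (-0.82 ± 0.10 SE, adjusted p = 0.000763). For both genes all CF arrays lay below all WT arrays. Acox3, a peroxisomal acyl-CoA oxidase, fell by 0.42 ± 0.06 SE and Maob, a mitochondrial monoamine oxidase, by 0.51 ± 0.09 SE. These 4 calls held in all 8 fits without 1 array and without WT 3 and CF 1 together.

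The oxidase genes of phagocytes and kidney in that list are read here beside other cell markers. Ncf4, a subunit of the phagocyte oxidase, was the riser (0.29 ± 0.09 SE, adjusted p = 0.0414), and its call was lost in 5 of the 8 fits without 1 array, among them that without WT 4 (adjusted p = 0.102), and without WT 3 and CF 1 (0.191). It passed when WT 1, CF 3 or CF 4 was dropped. Cyba, another subunit of that oxidase, did not pass (0.23 ± 0.26 SE, adjusted p = 0.584). Its groups overlapped, and WT 4 was the highest array at 10.02. The Cyba difference was 0.50 without WT 4 (adjusted p = 0.0862) and -0.05 without WT 3 and CF 1 (adjusted p = 0.938). Neutrophil markers were higher in CF: 4 of 6 rose, S100a8, S100a9, Ltf and Camp. Camp entered the tests through the 4 CF arrays alone (6.82 to 7.53), with WT under background (6.13 to 6.46), so its rise is a description. The summed level of the 6 markers was 9.67 to 10.03 in WT and 10.69 to 11.46 in CF. Cybb and Ncf1, further subunits of the phagocyte oxidase, were not above background on any array. Nox4, an oxidase abundant in kidney, read 6.48, 6.60, 6.66 and 8.88 in WT and 6.28, 6.25, 6.39 and 6.28 in CF, so that all CF values were under background. It did not pass with all arrays (adjusted p = 0.232) and was called lower without WT 4 (-0.28, adjusted p = 0.0418), a bounded difference since CF was under background. The probe entered the tests through the 4 WT arrays alone, and without WT 4 it would not meet that filter. The call is therefore a description. Dao, D-amino acid oxidase, was above background on WT 4 alone, at 8.08. The part of neutrophil and kidney transcripts in these values was not tested.

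Peroxisome assembly genes, the setting of catalase, went both ways: of 12 tested from a list of 16, 3 rose, 2 fell and 7 did not pass, with a median difference of 0.15. Pex19, which brings membrane proteins to the peroxisome, rose 1.36-fold (0.45 ± 0.07 SE, adjusted p = 0.00295) and Pex16, also of membrane assembly, rose by 0.43 ± 0.08 SE (adjusted p = 0.00724). Pex6, a motor that recycles the import receptor, fell 1.61-fold (-0.69 ± 0.13 SE, adjusted p = 0.00707) and Abcd3, a peroxisomal fatty acid transporter, fell by 0.32 ± 0.07 SE (adjusted p = 0.0117). For these 4 genes the groups did not overlap and the calls held in all 8 fits without 1 array, while Pex16 had adjusted p = 0.0560 without WT 3 and CF 1. Pex2 was the other riser (0.28 ± 0.08 SE, adjusted p = 0.0446), a call lost in each of the 8 fits without 1 array (adjusted p 0.0563 to 0.104), and Pex5, the receptor that carries catalase into the peroxisome, differed by -0.12 ± 0.09 SE and did not pass.

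The redox regulator list, which also holds the enzyme gene Hmox1, was higher where its genes changed. Of its risers, Hmox1 alone held in all 8 fits without 1 array. Of 11 genes, 8 were tested: 5 rose, 0 fell and 3 did not pass, with 5 and 0 at an unadjusted p under 0.05 (limma) and a median difference of 0.34. Hmox1, heme oxygenase, read 7.67, 7.87, 7.69 and 7.72 in WT and 9.30, 8.70, 9.15 and 9.90 in CF, 2.88-fold higher (1.53 ± 0.21 SE, adjusted p = 0.00147). Every CF array was above every WT array, and the call held in all 8 fits without 1 array. Mafg, a partner of NRF2, rose by 0.48 ± 0.12 SE (adjusted p = 0.0217), Keap1, the inhibitor of NRF2, by 0.33 ± 0.09 SE (0.0298), Ppargc1a, a coactivator of mitochondrial genes, by 0.75 ± 0.22 SE (0.0380) and Foxo1, a fasting transcription factor, by 0.35 ± 0.10 SE (0.0407). Mafg was lost without WT 2, CF 3 or CF 4 (adjusted p at most 0.0553), Keap1 when WT 1, WT 3, WT 4 or CF 2 was dropped (at most 0.0736) and Ppargc1a for any WT array, CF 1 or CF 3 (at most 0.10). Foxo1 was lost in 7 of the 8 fits and passed when CF 2 was dropped (adjusted p 0.0129 to 0.10). Nfe2l2, which encodes NRF2, differed by -0.05 ± 0.09 SE, and Nqo1, its classical target, by 0.11 ± 0.07 SE. The number of risers was 2 to 4 as single arrays were dropped, with 2 for any WT array or CF 3. It was 2 with the replicate block and 1 without WT 3 and CF 1, where 4.49% of all tested genes were higher. Some markers of other cells were also higher in these CF livers. The macrophage marker Marco rose by 1.08 (adjusted p = 0.0347), 1 of 4 Kupffer cell markers tested. Of these 4, 2 had differences below 0 (Clec4f -0.11, Adgre1 -0.10). The endothelial marker Lyve1 rose by 1.35 (adjusted p = 0.000188), 1 of 5 tested. Differences were above 0 for 4 of the 5 and below 0 for Clec4g (-0.16). Among neutrophil markers 4 of 6 rose, of which Camp was above background on the CF arrays alone. The summed Kupffer cell level was 11.73 to 12.12 in WT and 11.77 to 12.28 in CF, and the endothelial one 12.53 to 12.78 and 12.65 to 12.74. The part of these cells in the Hmox1 value was not tested.

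**Figure D4:**
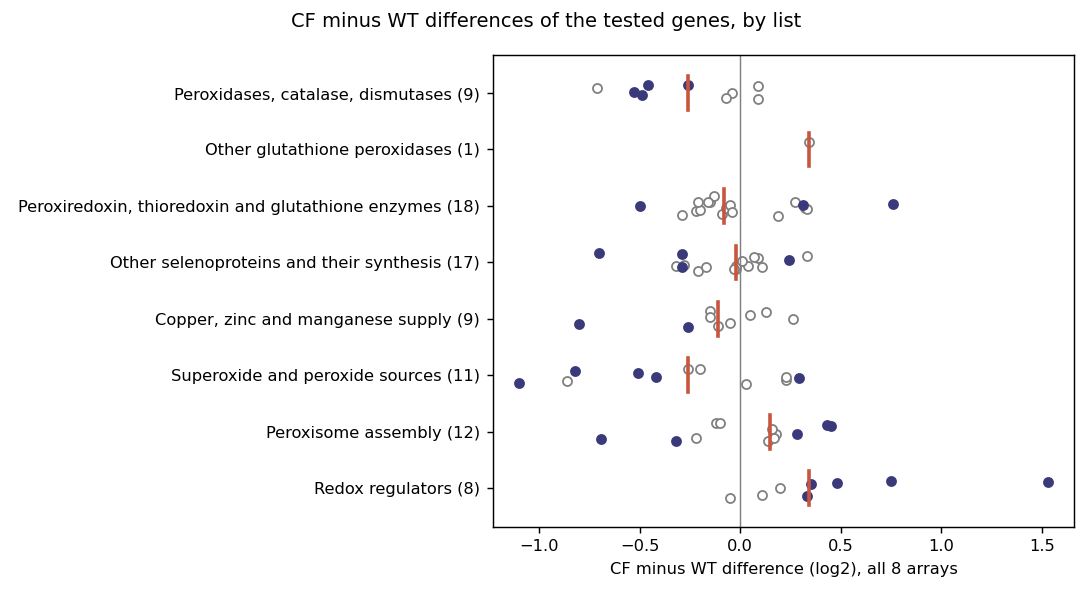
CF minus WT difference in log2 units (x axis) of each tested gene, by list (y axis, number of tested genes in brackets). Filled points passed adjusted p under 0.05 on all 8 arrays, open points did not, and the red bar is the median. The 9 enzyme genes have a median of -0.26, the redox regulators 0.34.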

How the data were processed

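Whole-liver total RNA of 8 mice was amplified to labelled cRNA and read on single-colour Illumina bead arrays, per the labels' protocols. GenomeStudio is named, without a version, in the submitters' processing notes. The deposited log2 values (25697 probes) were used. The sorted values of the 8 arrays agreed within 0.000351, as quantile normalization by the authors would give, and such scaling hides a change shared by most transcripts. Background correction is not given in the sources used here. A second table with 32 columns named by chip position was not used, since no label ties positions to samples.

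Background was set at 6.47, from the most frequent value (6.18) and 1.645 times the lower-side spread (0.173). Tests took the 12923 probes that exceeded it on 4 or more arrays. Each gene is its brightest tested probe. Probe names come from the platform annotation (23978 probes with 1 symbol, 1719 with none). Each probe was fitted on genotype, with no replicate block, by limma 3.58.1 (R 4.3.3), with its moderated two-sided test and Benjamini-Hochberg adjustment over all tested probes. The fit was tested on simulated data with independent normal noise and no library that stands apart, so that run does not cover such libraries. Precision is limited by the number of arrays (median SE 0.0889).

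Members, gene lists and libraries to leave out were chosen with earlier results of these data known. Named genes are the members, up to 4 genes per related list in order of adjusted p and, for a list with none passing, the 2 of lowest p, plus Cftr and the 3 genes most like each of Gpx1, Cat and Sod1. Others were named after their values were seen: Foxo1, Pex2, Ncf4, Nox4, Dao and every list gene that did not pass, apart from Gpx2. List genes with no probe under their symbol were not analysed here. Alternatives covered the dim-probe filter, replicate block, array weights, variance prior, cyclic loess, a floor at background, other probes, thresholds and left-out libraries. Leave-out fits kept the tested probes.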

Additional observations from a re-analysis of the deposited data

Results flagged for a closer look

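In these groups of 4 arrays, Dixon's gap test at its 95% critical value was applied to 54 probes in each genotype, 108 groups in all, and 11 exceeded it. Chance alone is set to exceed it in about 1 of 20 independent groups chosen without sight of the values. The groups here are not of that kind, so the count is a description. The gene lists, kidney markers included, were drawn up with earlier results known, and Nox4 and Dao were named after their values were seen. Flags on the same array are not independent. Of the 11, 6 are high values on WT 4. Gpx3 stood at 13.04 there, with the other WT arrays at 7.93 to 8.19. Kap was at 12.42 (others 6.14 to 6.29), Slc34a1 at 11.99 (others 6.07 to 6.20) and Umod at 10.85 (others 6.08 to 6.31). Nox4 was at 8.88 (others 6.48 to 6.66) and Dao at 8.08 (others 5.98 to 6.21).

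The remaining 5 are small in size. On the probe of Gpx8 that did not pass, WT 3 was low at 7.1 (others 7.31 to 7.33) and CF 3 high at 7.19 (others 6.91 to 6.94). Sod1 was low on WT 2 at 13.21 (others 13.34 to 13.36), Selenoi was high on CF 1 at 8.31 (others 8.17 to 8.19) and Txnrd1 was low on WT 1 at 6.96 (others 7.37 to 7.42).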

How the results depend on the processing

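Gpx7 and Gpx8 stayed lower and past the threshold in every alternative fit of their brightest probe, and Cat in every one except those without WT 3 and CF 1. Differences with single arrays left out ranged from -0.29 to -0.21 for Gpx1, -1.16 to 0.54 for Gpx3, -0.02 to 0.17 for Gpx4, -0.53 to -0.44 for Gpx7, -0.51 to -0.43 for Gpx8, -0.62 to -0.47 for Cat, -0.11 to 0.00 for Sod1, 0.04 to 0.14 for Sod2 and -0.13 to 0.02 for Sod3. Signs turned for Gpx3 (0.54) and Sod3 (0.02) without WT 4, for Gpx4 without WT 1 (-0.02) and for Sod1 without CF 3 (0.00). Without WT 3 and CF 1, Gpx1 was at -0.19 and Cat at -0.48, neither passing, and 2 members were lower. Without WT 3, WT 4 and CF 1, chosen after seeing the data, Gpx1 was at -0.17, Cat at -0.47, Gpx3 at 0.47 and Sod3 at 0.02, with 2 members lower. The probe of Gpx8 that did not pass gave -0.27. Member counts with 1 array left out were 0 or 1 higher and 3 or 4 lower. The cause of these changes was not tested.

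With the replicate number as a block, Gpx1 kept its difference of -0.26 at adjusted p = 0.0664, and 750 probes were higher and 690 lower, against 1337 and 1137 without the block. Deviations of equal-numbered arrays correlated at -0.327, 0.062, -0.288 and 0.088, so the numbers do not show a pairing. Probes higher and lower were 531 and 529 without WT 3 and CF 1, 250 and 368 without WT 4 as well, and 518 and 474 at adjusted p under 0.01. Leaving out 1 array gave 853 to 1158 higher and 759 to 952 lower. For the 7 related lists, 62 of 238 counts by setting and direction moved, either by over 1.5 times or to or from 0. The 1 dim probe of Gpx4 and the genes under background limit what these arrays can show.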
